A study of Mus musculus with 88 samples.

Results

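This report describes 6 mouse genes that are used together to recognise endoderm, the forkhead factors Foxa1, Foxa2 and Foxa3, the HMG-box factor Sox17, the nuclear receptor Hnf4a and the chemokine receptor Cxcr4. They were chosen by name and make up 6 of the 15830 genes in the single-cell table and 6 of the 54393 and 53697 genes in the endoderm and mesoderm tables. The study compared wild-type (WT) mouse embryonic stem cells (ESCs) with ESCs that lack a subunit of Polycomb repressive complex 2 (PRC2), the complex that methylates histone H3 at silent developmental genes. The 88 samples fall into 3 experiments. In the directed differentiation, WT E14, Mtf2 null and Jarid2 null ESCs were collected undifferentiated (UD) and after 5, 24 and 48 h towards endoderm (24 libraries) or mesoderm (24 libraries), with 2 libraries for each genotype and time. In the bulk embryoid bodies (EBs), which are aggregates that differentiate on their own once LIF is withdrawn, lines labelled Mtf2 null, Jarid2 null and Eed null were each set beside a different WT line (Pcl wt, JM8 and J1) at days 0, 2, 4 and 7, with 1 sample for each line and day. The deposited columns of day 0 are headed mono and those of the later days eb, while the labels name EBs at every day. The single-cell series held EB cells of these 3 mutants and of WT at days 0, 4, 7 and 10, with 1 library (1 plate of sorted live cells) for each genotype and day.

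Mtf2 belongs to the PRC2.1 form of the complex, Jarid2 to PRC2.2, and Eed to both. The study's methods describe the Mtf2 null allele as a gene trap (Mtf2GT/GT) and name matched WT lines for bulk sequencing. The labels name those lines in the bulk EBs and give E14 for the directed and single-cell samples, where genotype and line of origin cannot be told apart. All ESCs had been grown in serum with LIF. Directed cells received Activin A, CHIR99021 and FGF2 for the first day. For mesoderm BMP4 was added, the CHIR99021 dose was higher and the Activin A dose also differed. Activin A with a BMP inhibitor followed for endoderm, or BMP4 with a TGF-beta inhibitor for mesoderm. The study calls the duplicate libraries technical, so p-values over them measure only the spread between these samples.

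The labels were compared with the targeted genes. Mtf2 stood at 31.1 to 36.8 counts (CPM) in the Mtf2 null endoderm libraries against 218 to 509 CPM in WT, and at 30.2 to 38.2 against 206 to 499 CPM in the mesoderm series. Over all times, Jarid2 in endoderm-directed libraries stood at 283 to 571 CPM under the Jarid2 null label and at 307 to 608.9 CPM in WT. In the mesoderm series it stood at 189 to 622 against 318 to 661 CPM. Within a time, the Jarid2 null mean was below WT at UD, 5 h and 24 h in both series. At 24 h the means were 285 against 337 CPM towards endoderm and 204 against 328 CPM towards mesoderm. At 48 h they were above WT (362 against 317 and 423 against 397 CPM). The transcript was thus only partly lower under that label, and not at 48 h. In single cells each targeted gene was lower in every library named for it than in every WT library. In the bulk EBs Eed was not lower under the Eed null label at any day except day 2 (206 against 246 CPM), and the lowest Mtf2 level at day 0 (127 CPM) belonged to the sample labelled Jarid2 null, so bulk EB samples are called by their labels. Total counts ran from 9889592 to 16372804 in the endoderm and from 9111880 to 16898264 in the mesoderm libraries, and the 4949 single cells held 1143 to 105019 unique molecular identifiers (UMIs, 1 per captured transcript) with a median of 6650.

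Definitive endoderm arises from cells that pass through the primitive streak, whereas visceral and parietal endoderm descend from the primitive endoderm of the blastocyst. Foxa1 and Foxa2 are pioneer factors that open chromatin for liver, lung and gut genes, and Foxa2 is also a regulator of the node, notochord and floor plate. Sox17 is needed to form definitive endoderm and is also used by visceral endoderm and by endothelium. Hnf4a drives hepatic genes and is required in visceral endoderm, and Foxa3 acts later in liver and gut. Cxcr4, the receptor for Cxcl12, is a surface marker used to sort definitive endoderm and is also carried by migrating mesoderm.

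The 250 bases in front of annotated starts of Foxa2 and Hnf4a are printed because the results below turn on these genes and their windows hold letters recognised by endoderm factors. Sequences are from RefSeq (GRCm38.p6), 5′ to 3′ on the gene's strand. Capitals mark the forkhead core TGTTTG or TGTTTA or the GATA motif AGATAA, each searched on both strands.
Foxa2, chr2:148046970-148047219, minus strand: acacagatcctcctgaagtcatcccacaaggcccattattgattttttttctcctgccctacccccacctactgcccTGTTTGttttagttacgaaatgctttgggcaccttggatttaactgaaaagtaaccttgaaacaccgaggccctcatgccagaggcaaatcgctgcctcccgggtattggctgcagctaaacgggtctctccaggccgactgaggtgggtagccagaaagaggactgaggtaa
Hnf4a, chr2:163506607-163506856, plus strand: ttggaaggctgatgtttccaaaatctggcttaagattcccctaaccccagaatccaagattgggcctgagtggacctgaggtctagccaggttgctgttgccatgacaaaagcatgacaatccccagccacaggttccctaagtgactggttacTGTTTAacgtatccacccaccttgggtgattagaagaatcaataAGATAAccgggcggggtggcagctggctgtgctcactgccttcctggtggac
The printed Foxa2 window held TGTTTG, and the printed Hnf4a window held TGTTTA and AGATAA. The windows of Foxa1 and Cxcr4 also held a forkhead core. So did another Hnf4a window, with 4 CpG dinucleotides. Of the Foxa2 windows not printed, 1 held both a forkhead core and AGATAA and 1 held neither. Of 32851 windows of this length, 25.3% held a forkhead core and 9.99% AGATAA, so a match is a description of letters and not a site. The printed Foxa2 window had 6 CpG dinucleotides and the Hnf4a window 3, against a median of 6 over all windows, 21 for Foxa1, 19 for Cxcr4, 18 for Foxa3 and 13 and 20 in front of the other Foxa2 starts. A window was found for 5 of the 6 genes, and Sox17 (chr1:4490931-4497354) had no entry.

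By the GENCODE annotation on GRCm38, Foxa1 (ENSMUSG00000035451) lies at chr12:57540628-57546916, Foxa2 (ENSMUSG00000037025) at chr2:148042877-148046969, Foxa3 (ENSMUSG00000040891) at chr7:19013284-19023538 and Cxcr4 (ENSMUSG00000045382) at chr1:128588199-128592293. Hnf4a (ENSMUSG00000017950) lies at chr2:163506808-163572910 and overlaps its antisense gene Hnf4aos over 34913 bases, and Sox17 (ENSMUSG00000025902) overlaps the opposite-strand model Gm37587 over 804 bases. Hnf4aos reached at most 0.10 CPM and Gm37587 at most 0.28 CPM in any directed library.

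Foxa2 was near the detection limit in WT cells at every directed time point and was present in Mtf2 null cells before differentiation began. In the endoderm series the WT libraries held 0 and 0.28 CPM undifferentiated, 0.85 and 0.34 CPM at 5 h, 0.073 and 0 CPM at 24 h, and 0.35 and 0 CPM at 48 h. The Mtf2 null libraries held 2.26 and 3.43 CPM undifferentiated, 2.55 and 2.12 CPM at 5 h, 3.69 and 1.81 CPM at 24 h, and 19.8 and 15.6 CPM at 48 h. Every Mtf2 null library lay above every WT library at its time point. The share of all genes separated in this way, 2 libraries against 2, is not given here or for the genes below. Undifferentiated Mtf2 null cells gave 67 Foxa2 reads against 3 in WT, a depth-scaled ratio of 20.1 (95% counting interval 6.58 to 99.8), and at 48 h 488 against 4, a ratio of 97.7 (37.9 to 359.8). Foxa2 rose in Mtf2 null over WT by 4.24 ± 0.74 (log2 fold change ± SE, n = 2 against 2, Benjamini-Hochberg adjusted p = 1.01e-04, edgeR quasi-likelihood test) undifferentiated, by 5.96 ± 0.87 (2.07e-05) at 24 h and by 6.54 ± 0.60 (1.88e-08) at 48 h. The difference of 1.94 ± 0.57 at 5 h did not pass (adjusted p = 0.0117, limit 0.001), but did without the filter on low counts (1.93, 2.03e-04). Because WT counts were so low, single WT libraries moved these sizes: the 48 h change was 10.83 without WT 48 h replicate 1 and 5.63 without replicate 2, and the 24 h change 8.12 and 5.04. The 24 h call was lost without WT 24 h replicate 2 (adjusted p = 0.00147), and the undifferentiated one without WT UD replicate 1 (3.30, 0.00324) or Mtf2 null UD replicate 2 (3.91, 0.00157), while leaving out WT UD replicate 2 gave 8.21.

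The mesoderm series gave the same order for Foxa2. WT libraries held 0.49 and 0.26 CPM undifferentiated and 0.33 and 0.33 CPM at 48 h, and Mtf2 null libraries held 2.52 and 3.52 CPM undifferentiated and 10.4 and 8.00 CPM at 48 h. At 24 h the pairs were 0.36 and 0.073 CPM in WT and 1.90 and 2.17 CPM in Mtf2 null. Foxa2 rose by 3.00 ± 0.52 (adjusted p = 1.14e-04), 3.26 ± 0.58 (3.11e-04) and 4.77 ± 0.48 (2.14e-07) undifferentiated, at 24 h and at 48 h, and the 5 h value of 2.15 did not pass (0.00514). The 24 h call was lost without either Mtf2 null replicate (adjusted p = 0.00169 and 0.00355) or without WT replicate 2 (2.46, 0.0163), and its size was 4.61 without WT replicate 1. The undifferentiated call was lost without Mtf2 null replicate 2 (0.0019) or WT replicate 2 (0.00552). The libraries labelled Jarid2 null held 0.065 to 0.61 CPM of Foxa2 in the endoderm series and 0.19 to 0.68 CPM in the mesoderm series, where WT held 0 to 0.85 and 0.073 to 0.54 CPM.

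Foxa3 and Foxa1, the other forkhead members, were called in no directed contrast. Foxa3 ranged from 1.30 to 5.45 CPM over the endoderm and from 1.11 to 6.27 CPM over the mesoderm libraries. Its undifferentiated endoderm-series values were 1.89 and 3.00 CPM in WT and 4.10 and 4.29 CPM in Mtf2 null (log2 0.77 ± 0.29, adjusted p = 0.04), and at 48 h 3.64 and 4.24 against 4.41 and 5.10 CPM (0.28 ± 0.27, 0.455). The mesoderm 48 h difference was 0.06 (0.932). Foxa1 reached at most 0.678 CPM in the endoderm series, too low to be tested there, and at most 1.235 CPM in the mesoderm series (a Mtf2 null 24 h library), where its 48 h difference was −1.83 ± 1.01 (0.190). Changes in Foxa1 were not detectable at this depth.

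Sox17 was the member with the most calls. In the endoderm series WT cells held 1.42 and 0.094 CPM undifferentiated, 0.31 and 0.75 CPM at 5 h, 0.36 and 0.45 CPM at 24 h and 0.17 and 0.38 CPM at 48 h. Mtf2 null cells held 6.36 and 10.7, 3.21 and 4.42, 6.65 and 6.03, and 34.3 and 30.6 CPM at the same times. The groups, 2 libraries against 2, did not overlap at any time, and the Mtf2 null 48 h libraries stood above all others. At 48 h 897 Sox17 reads in Mtf2 null faced 6 in WT, a ratio of 119.7 (54.8 to 326.9). Sox17 rose in Mtf2 null by 3.48 ± 0.46 (adjusted p = 2.99e-06) undifferentiated, 2.85 ± 0.52 (2.22e-04) at 5 h, 3.92 ± 0.49 (2.66e-06) at 24 h and 6.85 ± 0.50 (4.61e-10) at 48 h. The 5 h call was lost without WT replicate 1 (2.33, 0.0104), WT replicate 2 (3.61, 0.00107) or Mtf2 null replicate 2 (2.60, 0.00448). The undifferentiated change was 6.38 without WT UD replicate 1 and 2.58 without replicate 2, with the call kept, and the 48 h change was 7.47 without WT 48 h replicate 2.

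In the mesoderm series WT Sox17 stood at 0.98 and 0.60, 0.27 and 0.52, 0.72 and 0.66, and 0.20 and 1.30 CPM in time order. Mtf2 null libraries stood at 6.16 and 9.95, 5.52 and 4.34, 7.03 and 6.77, and 21.3 and 16.6 CPM. Again the groups did not overlap, 2 libraries against 2 at each time. Sox17 rose by 3.35 ± 0.50 (2.01e-05), 3.62 ± 0.59 (8.11e-05), 3.31 ± 0.50 (4.89e-05) and 4.72 ± 0.47 (2.15e-07). Single libraries ended 3 of these calls: WT UD replicate 2 (3.01, adjusted p = 0.00151), either WT 5 h replicate (0.00454 and 0.00127) and either WT 24 h replicate (0.00146 and 0.00274). The 48 h call held, with 3.85 and 6.51 when WT 48 h replicate 1 or 2 was left out. Libraries labelled Jarid2 null held 0.21 to 0.65 CPM in the endoderm and 0.28 to 1.44 CPM in the mesoderm series.

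**Figure D1:**
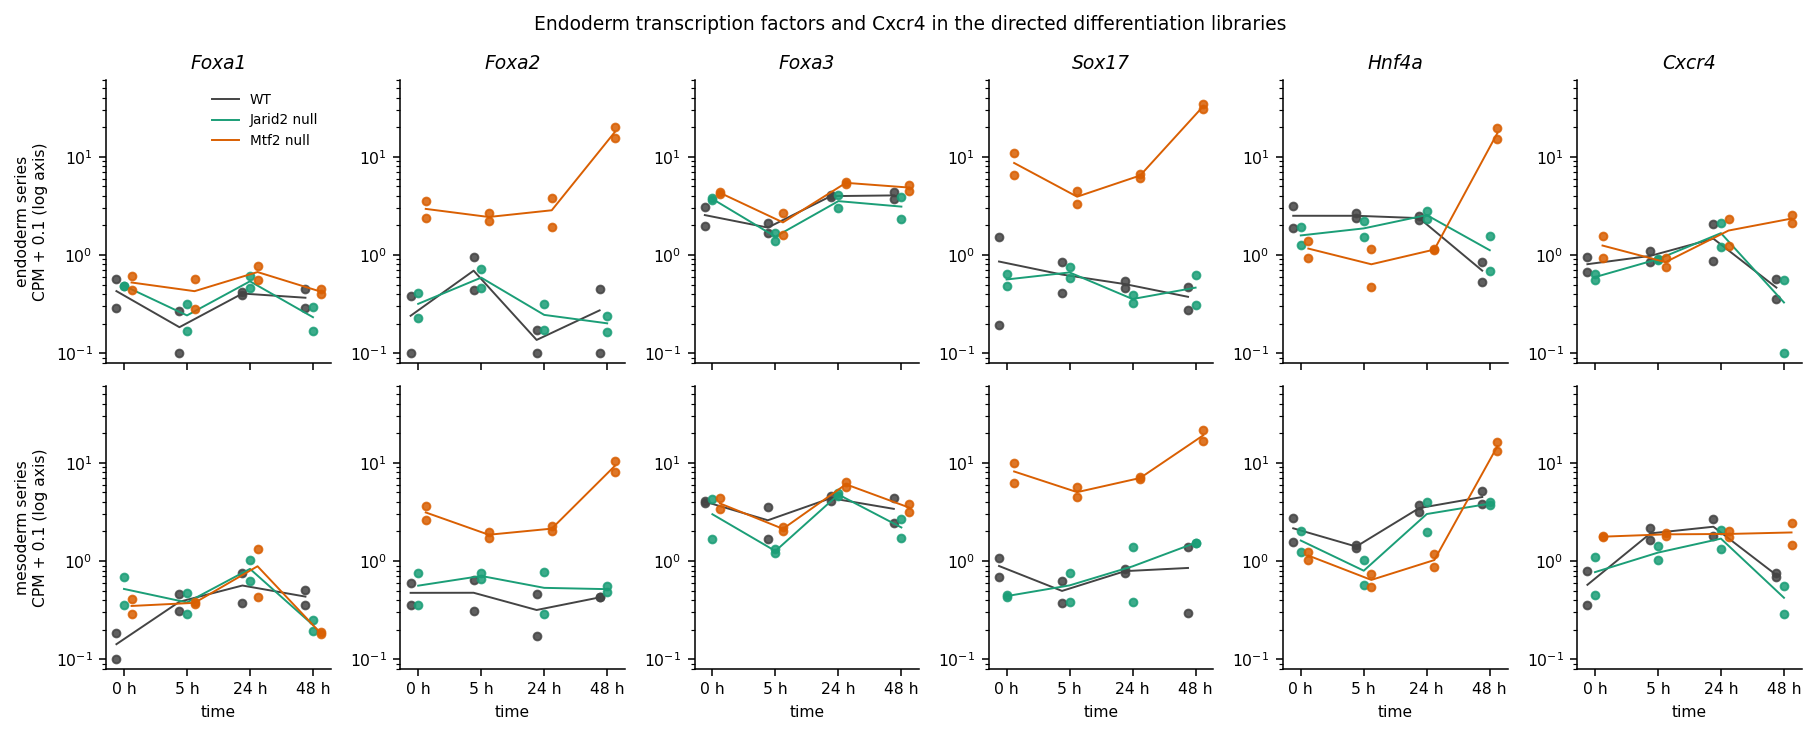
Level of each gene (CPM plus 0.1, log axis) against time in hours (0 h is undifferentiated) in the endoderm series (upper row) and the mesoderm series (lower row), with a point for each library and a line through the group means. Foxa2 and Sox17 in Mtf2 null lay above WT and Jarid2 null at every time, whereas the Mtf2 null mean of Hnf4a was the lowest of the 3 genotypes until 24 h and the libraries stood at 19.5 and 15.1 CPM at 48 h of the endoderm series.

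Hnf4a was called higher in Mtf2 null at 48 h, and its difference from WT depended on time. Undifferentiated endoderm-series libraries held 3.03 and 1.78 CPM in WT and 0.84 and 1.29 CPM in Mtf2 null, and at 24 h 2.18 and 2.36 against 1.01 and 1.05 CPM. At 5 h the values were 2.55 and 2.26 CPM in WT and 1.04 and 0.37 CPM in Mtf2 null. At each of these times both Mtf2 null libraries were below both WT libraries, an order of 2 against 2 that is not a test. The differences were −1.18 ± 0.43 (adjusted p = 0.0324), −1.77 ± 0.46 (0.00532) and −1.13 ± 0.41 (0.0493) at UD, 5 h and 24 h, none past the limit. Without the filter on low counts the 5 h difference passed (−1.78, 3.09e-04). At 48 h WT had 0.43 and 0.75 CPM and Mtf2 null 19.5 and 15.1 CPM. Hnf4a then rose by 4.85 ± 0.41 (4.48e-09), with 476 reads against 13, a ratio of 29.3 (17.0 to 55.5). The change from UD to 48 h differed between Mtf2 null and WT by 6.03 ± 0.60 on the log2 scale (adjusted p = 4.43e-07, interaction term), in a contrast where 5.24% of all genes were called. Libraries labelled Jarid2 null held 0.59 to 2.68 CPM of Hnf4a.

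In the mesoderm series Hnf4a was 2.66 and 1.45 CPM in undifferentiated WT and 0.93 and 1.14 CPM in Mtf2 null, and at 24 h 3.07 and 3.65 against 0.76 and 1.09 CPM (−1.85 ± 0.40, adjusted p = 0.00194). The 24 h difference passed the limit when a Jarid2 null 24 h library was left out of the fit (9.07e-04 and 8.25e-04) or when low-count genes were not filtered (3.86e-05). At 48 h WT held 5.10 and 3.67 CPM and Mtf2 null 13.0 and 16.2 CPM, a rise of 1.73 ± 0.30 (2.15e-04). This call was lost without any 1 of the 4 libraries compared (1.51 to 1.99, adjusted p = 0.00105 to 0.00619). The interaction of Mtf2 null with time was 2.69 ± 0.53 (0.00143) and did not pass (2.71% of all genes were called). Libraries labelled Jarid2 null held 0.47 to 3.93 CPM.

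The time course of WT Hnf4a was compared between the endoderm and mesoderm directions. Its 48 h minus UD difference was −2.01 ± 0.48 (adjusted p = 0.00234) towards endoderm and 1.11 ± 0.35 (0.0172) towards mesoderm, neither past 0.001. The direct comparison of these changes in a fit of all 48 directed libraries gave −3.13 ± 0.60 (8.00e-04), so the endoderm-directed WT cells ended lower relative to their start than the mesoderm-directed ones. The call was lost when any 1 of 11 libraries was left out (−2.70 to −3.56, adjusted p up to 0.0178). Of all genes tested in that WT contrast, 1.35% were called. In Mtf2 null cells the same comparison gave 1.02 for Foxa2 (0.534), 0.69 for Sox17 (0.708) and 0.20 for Hnf4a (0.971), and none of the 6 members reached an unadjusted p of 0.05 (0.617% of genes were called). For Hnf4a in the libraries labelled Jarid2 null it was −1.85 ± 0.57 (0.0446), where 1.97% of genes were called. Both deposited columns of the Jarid2 null endoderm 48 h group are headed with another hour than their labels, which bears on every Jarid2 null endoderm value at 48 h.

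Cxcr4 stayed low throughout. Endoderm-series WT libraries held 0.57 and 0.84 CPM undifferentiated, 1.96 and 0.77 CPM at 24 h and 0.26 and 0.47 CPM at 48 h. Mtf2 null libraries held 0.84 and 1.46, 2.21 and 1.13, and 2.47 and 2.02 CPM. At 48 h both Mtf2 null values lay above both WT values, by 2.60 ± 0.66 (adjusted p = 0.00346), which did not pass, but did without the filter on low counts (2.59, 2.65e-05) and reached 0.001 without Jarid2 null 48 h replicate 1. In the mesoderm series the 48 h libraries held 0.59 and 0.65 CPM in WT and 2.36 and 1.35 CPM in Mtf2 null (1.56 ± 0.48, 0.0205), and the undifferentiated ones 0.69 and 0.26 against 1.68 and 1.66 CPM (1.83 ± 0.54, 0.0105). In WT mesoderm-directed cells the Cxcr4 difference was 1.94 ± 0.54 from UD to 5 h (0.008) and −1.78 ± 0.47 from 24 to 48 h (0.00999), again short of 0.001. Libraries labelled Jarid2 null held 0 to 2.03 CPM over both series.

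The ligand Cxcl12 and the scavenging receptor Ackr3 were read as partners of Cxcr4. At 48 h of the mesoderm series Cxcl12 was 22.6 and 23.9 CPM in WT and 4.27 and 6.18 CPM in Mtf2 null, and fell by 2.15 ± 0.29 (adjusted p = 8.92e-06). Towards endoderm it was 1.47 and 0.66 against 0.75 and 2.86 CPM (0.75, 0.425). Ackr3 at 48 h of the endoderm series was 0.17 and 0 CPM in WT and 4.19 and 5.86 CPM in Mtf2 null, a rise of 5.66 ± 0.61 (1.99e-07), and towards mesoderm 2.29 and 0.49 against 5.63 and 5.63 CPM (1.96, 0.00327).

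Counted over members, 2 of the 5 tested were called in undifferentiated Mtf2 null cells of the endoderm series, 1 at 5 h, 2 at 24 h and 3 at 48 h, every call upward. Over all 19261 genes tested, the share called higher was 6.23%, 3.57%, 3.57% and 6.37% at these times. In the mesoderm series 2, 1, 2 and 3 of 6 tested members were called higher, where 6.47%, 3.45%, 2.78% and 3.76% of the 18361 genes tested were. No member was called between libraries labelled Jarid2 null and WT. In the endoderm series none of those 20 member contrasts reached an unadjusted p of 0.05 (lowest adjusted p 0.258), and in the mesoderm series 2 of 24 did (lowest adjusted p 0.129), while DESeq2 called 0 in each. Of all genes, 0.742%, 0.0363%, 0.0312% and 0.125% were called in the endoderm and 0.370%, 0%, 1.97% and 0.169% in the mesoderm contrasts of Jarid2 null in time order. The WT time courses gave no member call either, with 7 of 20 endoderm and 5 of 24 mesoderm contrasts at an unadjusted p under 0.05 and 0 called by DESeq2. Over all genes the WT steps UD to 5 h, 5 to 24 h and 24 to 48 h gave calls for 2.10%, 1.76% higher with 0.737% lower, and 3.88% towards endoderm and 4.13%, 4.41% and 4.16% towards mesoderm, and UD to 48 h for 8.15% and 8.64%.

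**Figure D2:**
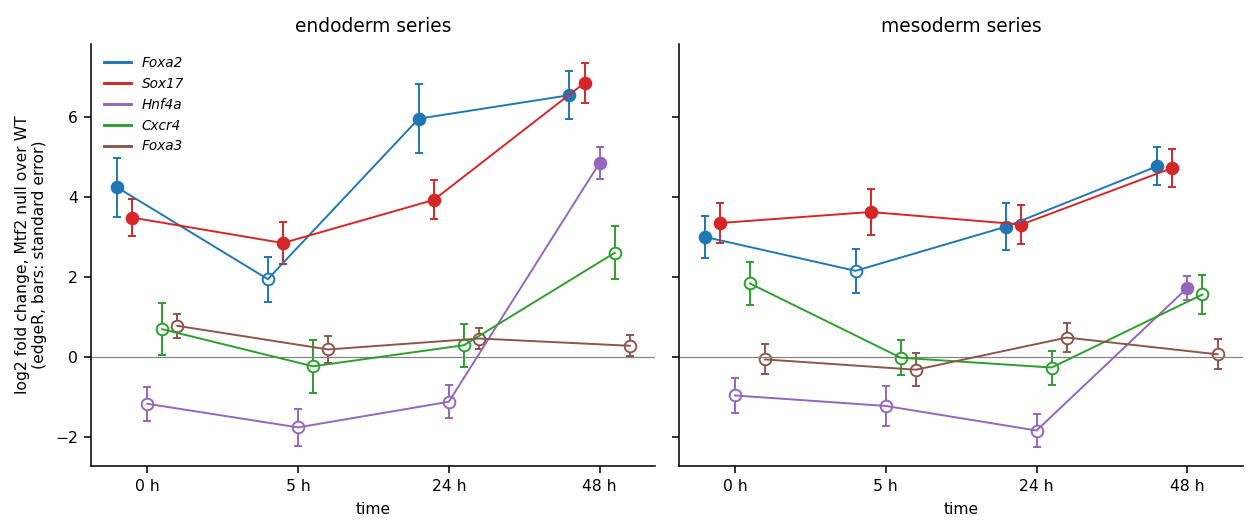
Log2 fold change of Mtf2 null over WT (bars are the standard error, filled points are called at adjusted p under 0.001 and a change over 1) by time in each directed series. Sox17 was called at every time in both series and Foxa2 at all but 5 h, and Hnf4a passed from −1.18 undifferentiated to 4.85 at 48 h towards endoderm.

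The endoderm label was set against its markers. The streak gene T (brachyury) stood at 27.03 and 22.3 CPM in WT at 24 h of the endoderm series and at 55.6 and 59.8 CPM at 24 h of the mesoderm series. In Mtf2 null it stood at 3.60 and 3.69 CPM at 24 h towards endoderm, where it fell by 2.75 ± 0.27 (adjusted p = 7.99e-08) against WT while Foxa2 and Sox17 rose, and at 40.003 and 37.6 CPM towards mesoderm (−0.57, 0.1033). In WT endoderm libraries Eomes stood at 2.84 and 2.53 CPM undifferentiated and 11.3 and 12.1 CPM at 48 h. Cer1 and Gsc, which mark anterior definitive endoderm and its precursors, stayed at or below 0.224 and 0.558 CPM in every directed library, and Mixl1 at or below 1.285 CPM. Sox17, Foxa2 and Cxcr4 of the definitive endoderm list were under 1 CPM in both WT libraries at 48 h, while Trh stood at 164 and 98.3 CPM. Trh was not limited to endoderm. In single cells it was seen in 171 of the 335 cells of cluster 3, made mostly of undifferentiated WT cells. In cluster 21, which the study calls endoderm, it was seen in 23 of 47 cells. Cldn6, also on the list, was seen in 122 and 42 cells of these clusters. The 12 definitive endoderm markers summed to 368 and 280 CPM in WT at 48 h against 233 and 218 CPM undifferentiated, and to 570 and 553 CPM in Mtf2 null at 48 h. These sums include Trh and Cldn6, so they cannot tell definitive endoderm from undifferentiated cells.

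Markers of extraembryonic endoderm moved with the Mtf2 null genotype beside Foxa2, Sox17 and Hnf4a. At 48 h of the endoderm series 8 of the 9 tested visceral or yolk sac endoderm markers (14 listed) and 7 of 8 parietal endoderm markers were called higher and none lower, with median log2 changes of 4.85 and 4.39 against −0.02 over all genes. The visceral count includes Hnf4a, and 6.37% of all genes tested were called higher in that contrast. The endocytic receptor gene Cubn stood at 1272 and 1240.2 CPM in Mtf2 null against 13.2 and 11.0 CPM in WT, its partner Amn at 78.2 and 61.01 against 0.69 and 0.28 CPM, and the adaptor gene Dab2 at 252 and 211 against 5.54 and 3.49 CPM. Summed over the list, visceral markers gave 1747 and 1638 CPM in Mtf2 null and 41.4 and 36.2 CPM in WT, and parietal markers, which include basement membrane genes such as Col4a1, gave 5376 and 4599 against 296 and 289 CPM. Undifferentiated libraries already differed, with visceral sums of 242 and 293 against 51.2 and 49.6 CPM. Several defining visceral genes stayed near 0 in all 48 h libraries, with Afp at or below 0.238, Apoa1 at or below 0.545, Apoa4 at or below 0.555 and Fgb at or below 0.182 CPM. Towards mesoderm the 48 h visceral sums were 1038 and 1173 against 52.2 and 49.98 CPM. There 9 of 10 tested visceral markers, Hnf4a among them, and 7 of 7 parietal markers were called higher. Of all genes tested there, 3.76% were called higher. In bulk RNA fewer cells of a type and less RNA per cell cannot be told apart, and the part of these cell types in the member results was not tested.

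Among the 37 genes of the endoderm and anterior streak list, 31 were tested in the endoderm series, and at 48 h 15 were called higher and 2 lower in Mtf2 null, with a median of 1.03. Of all genes tested, 6.37% were called higher, and the share called lower is not given here. The GATA factors Gata6 (5.75, 64.3 and 53.3 CPM against 0.69 and 1.51 CPM) and Gata4 (3.76), the Sox factor Sox7 (3.79) and Hhex (1.54), an early liver and anterior endoderm factor, rose. Trh (−2.26, 24.6 and 30.2 against 164 and 98.3 CPM) and Otx2 (−2.16), an anterior and neural homeobox factor, fell. In undifferentiated cells 13 were called higher and 4 lower, with a median of 1.18 against −0.05 over all genes, and in the mesoderm series 14 of 30 tested were higher and 4 lower undifferentiated and 12 higher and 2 lower at 48 h. Of all genes, 6.23%, 6.47% and 3.76% were called higher in these contrasts in that order. Of the 17 hepatic and gut targets, 10 were tested and 4 (Apoa2, Apob, Tcf7l2 and Ttr) were called higher at 48 h towards endoderm. Ttr, the transthyretin gene of visceral endoderm and liver, was 8.01 and 6.84 CPM in Mtf2 null and listed with no reads in both WT libraries, and Alb had none in any 48 h library. Towards mesoderm 6 of 11 were higher.

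The remaining marker lists were read at 48 h of the endoderm series, where 6.37% of all genes tested were called higher. The share called lower is not given here, so the lower counts have no background. Of the 9 tested definitive endoderm markers, 5 were called higher (Gata6, Cldn6, Hhex, Sox17 and Foxa2) and Trh lower. Sox17 and Foxa2 are members already counted above, and Foxa2 is counted again among the node markers. Trh, as given above, was also carried by undifferentiated cells. Node and notochord markers gave 2 of 5 higher (Foxa2 and Nog), mesoderm markers 2 of 8 (Pdgfra and Tbx20), endothelial markers 3 of 8 (Esam, Tek and Cdh5) and pluripotency markers 2 higher and 1 lower of 8. Neural markers gave none higher and 2 of 6 lower (Otx2 and Sox1).

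In bulk EBs Foxa2, Sox17 and Hnf4a were called higher over the 4 days under the Mtf2 null and Jarid2 null labels than in their WT lines. They were not called under the Eed null label, where the order of the lines differed between days. In day order, Foxa2 under the Mtf2 null label was 0.97, 1.62, 7.39 and 10.6 CPM, where Pcl wt had 0, 0.13, 0.33 and 3.37 CPM. Under the Jarid2 null label it was 0.87, 1.21, 9.81 and 26.6 CPM against 0, 0.079, 1.18 and 3.60 CPM in JM8. Both labelled lines were above their WT line on each of the 4 days. With the day as a block, limma gave a rise of 2.64 ± 0.44 (log2 CPM with a prior count of 2, n = 4 days, adjusted p = 3.52e-04) and of 2.63 ± 0.44 (4.41e-04). Under the Eed null label Foxa2 was 0.83, 1.57, 5.77 and 5.20 CPM against 0.36, 0.39, 6.46 and 10.3 CPM in J1 (0.35, not called), above J1 at days 0 and 2 and below it at days 4 and 7.

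Sox17 and Hnf4a followed the same order in those lines. Sox17 was 1.11, 4.06, 5.16 and 9.37 CPM (Mtf2 null label) against 0.34, 0.25, 0 and 3.27 CPM, and 2.21, 3.29, 13.6 and 48.8 CPM (Jarid2 null label) against 0.61, 0.24, 0.74 and 7.64 CPM. It rose by 2.70 ± 0.72 (adjusted p = 0.0129) and 2.78 ± 0.72 (0.0128). Hnf4a was 7.09, 1.495, 21.2 and 33.1 CPM (Mtf2 null label) against 2.12, 0.63, 0.33 and 1.26 CPM. Under the Jarid2 null label Hnf4a was 1.21, 5.96, 17.4 and 80.4 CPM against 1.67, 0.24, 0 and 2.29 CPM, below JM8 at day 0 and above it at the other 3 days. The changes were 3.14 ± 0.86 (0.0159) and 3.74 ± 0.86 (0.00648). Under the Eed null label Sox17 was 2.29, 1.92, 3.91 and 3.82 CPM against 0.36, 1.25, 13.9 and 11.9 CPM, and Hnf4a 1.66, 2.00, 9.29 and 18.7 CPM against 6.05, 3.85, 2.77 and 35.5 CPM, with differences of −0.16 and −0.47 that were not called. Without day 2, 4 or 7 the calls under the Jarid2 null label were lost for Hnf4a (adjusted p = 0.0557, 0.0851 and 0.0724) and Sox17 (0.0842, 0.0532 and 0.0520). Under the Mtf2 null label Hnf4a was lost without day 4 or 7 (0.117 and 0.142) and Sox17 without day 2 or 4 (0.0772 and 0.0877).

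Foxa1 rose under the Mtf2 null label, with 0.28, 0.94, 6.32 and 10.2 CPM against 0.21, 0, 0.66 and 1.90 CPM in Pcl wt (2.01 ± 0.65, adjusted p = 0.037). That call was lost without day 2, 4 or 7 (0.153, 0.244 and 0.0771) and without the filter on low values (0.0632). Under the Jarid2 null label Foxa1 was 1.61, 0.17, 1.57 and 1.84 CPM against 0.38, 0, 0.59 and 1.53 CPM (1.00, 0.328). Under the Eed null label it was 4.78, 2.18, 6.26 and 7.85 CPM against 0.53, 0.19, 2.36 and 28.2 CPM in J1, higher at days 0, 2 and 4 and lower at day 7 (1.23 ± 0.65, 0.232). Foxa3 ranged from 1.39 to 11.0 CPM over the samples (−0.07, 0.937 under the Mtf2 null label and 0.61, 0.391 under the Jarid2 null label).

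Cxcr4 was carried by single samples. It reached 50.1 CPM at day 4 under the Jarid2 null label, where the other days held 1.87, 0.43 and 8.68 CPM, and 63.7 CPM at day 4 in J1, where the other days held 2.67, 2.02 and 9.54 CPM. JM8 held 1.90, 3.00, 3.40 and 18.3 CPM. No contrast was called (−0.54, 0.09 and −1.49 ± 0.81 under the Mtf2 null, Jarid2 null and Eed null labels, adjusted p = 0.679, 0.956 and 0.245). Over the 6 members 4, 3 and 0 were called higher under the 3 labels in that order, where 9.86%, 7.07% and 5.52% of the 15837 genes tested were called higher. Of 13 tested visceral endoderm markers 10, 5 and 0 were called higher. The list includes the member Hnf4a, which is among the 10 and among the 5. The part of the other markers in the member results was not tested.

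**Figure D3:**
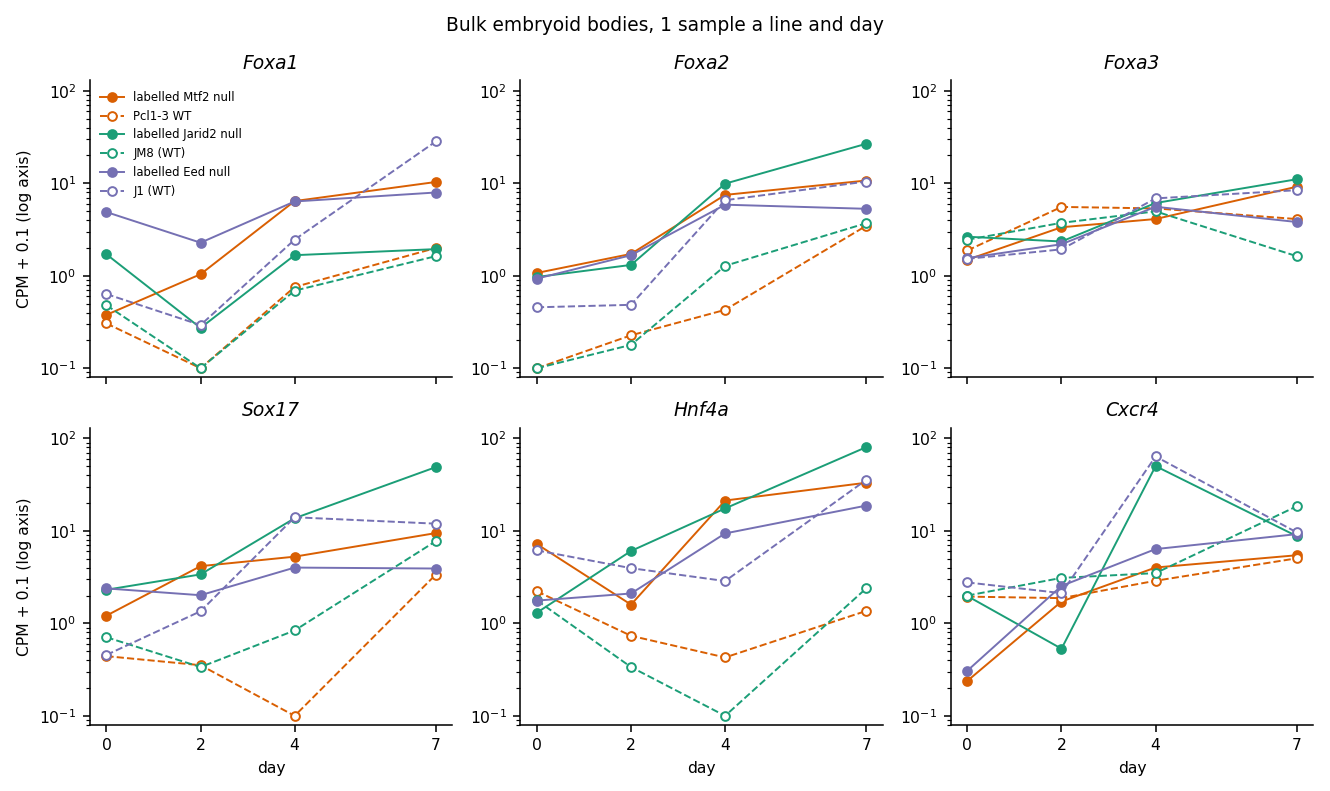
Level of each gene (CPM plus 0.1, log axis) by day in bulk EBs, 1 point for each line and day, filled symbols for the lines labelled null and open symbols with dashed lines for their WT lines. Foxa2, Sox17 and Hnf4a under the Mtf2 null and Jarid2 null labels ran above their WT lines by day 4 (Foxa2 7.39 and 9.81 CPM against 0.33 and 1.18 CPM), and Cxcr4 peaked at day 4 in 2 samples only.

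In single cells most members were highest in cluster 21 of the deposited clustering (resolution 2.5, 22 clusters). The study calls this cluster endoderm, and it holds 47 of the 4949 cells. It held 79.0% of Hnf4a UMIs, 43.35% of Foxa2, 41.3% of Sox17, 28.7% of Foxa1, 6.5% of Foxa3 and 3.6% of Cxcr4 UMIs. Its genes include the members, so their presence there is a description. Of the 47 cells 33 were Mtf2 null (22 of the 344 cells of day 7 and 11 of the 321 of day 10), 9 were WT (1 at day 4, 6 at day 7 and 2 at day 10), 3 were Jarid2 null at day 10 and 2 Eed null at day 7. Its leading genes were Spink1 (1007.6 CPM inside and 4.54 CPM outside), Srgn, Dab2, Cubn, Ttr, Ctsh, Cited1, Tmprss2, Sox17, Apob, Cer1 and Foxa2. Visceral endoderm markers such as Dab2, Cubn and Ttr thus stood beside Sox17, Cer1 and Foxa2. Sox17 is also used by visceral endoderm, and whether the cluster held both visceral and definitive endoderm was not tested. Node and notochord markers were also higher inside than outside it, with Shh at 23.9 against 0.446 UMI CPM (4 cells), Chrd at 43.1 against 1.44 (10 cells), Nog at 59.8 against 6.27 (7 cells) and Foxj1 at 50.3 against 1.99 (6 cells).

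Within cluster 21 the level in UMI CPM (UMIs scaled by the summed UMIs of the cells) was 361.4 for Sox17, 210.6 for Foxa2, 117.3 for Hnf4a, 74.2 for Foxa1, 43.1 for Cxcr4 and 12.0 for Foxa3. Outside it the values were 5.6 for Sox17, 3.0 for Foxa2, 0.3 for Hnf4a, 2.0 for Foxa1 and 12.7 for Cxcr4. Foxa2 was seen in 31 of the 47 cells, Sox17 in 25, Foxa1 in 17, Cxcr4 in 12, Hnf4a in 10 and Foxa3 in 3, at a median of 6673 UMIs a cell. For comparison, cluster 3, made mostly of undifferentiated WT cells (335 cells, median 8485 UMIs), had Foxa2 and Sox17 in 0 cells, Foxa1 and Hnf4a in 2, Cxcr4 in 3 and Foxa3 in 6. The Foxa3 share in cluster 21 therefore rests on 3 cells and 5 UMIs.

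Cells of cluster 21 combined the members in different ways. Foxa2 and Sox17 were both seen in 19 cells, Foxa2 without Sox17 in 12 and Sox17 without Foxa2 in 6. Hnf4a was seen with Foxa2 in 7 of its 10 cells and Foxa1 with Foxa2 in 11 of its 17. At least 3 members were seen in 19 cells and no member in 5. A UMI of T was present in 14 cells, 13 of them Mtf2 null. Of these 13 cells 9 had Foxa2, 4 Foxa1, 4 Sox17, 3 Shh, 2 Dab2 and 0 Hnf4a, Cubn or Spink1. A UMI of Ttr was present in 11 cells (5 WT, 4 Mtf2 null and 2 Eed null). Of these 11 cells 7 had Foxa2, 7 Sox17, 6 Hnf4a, 10 Spink1, 9 Dab2 and 2 Cubn. Cubn was also seen in 7 of the 36 cells without Ttr. At this depth the absence of a UMI does not show that a cell lacks the transcript.

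A single cell carried much of the Hnf4a signal. The deepest cell of cluster 21, a WT day 7 cell with 76012 UMIs where the next cell had 13812, held 25 of the cluster's 49 Hnf4a UMIs. Without it Hnf4a in the cluster was 70.2 UMI CPM, and in the whole WT day 7 library it went from 13.7 to 1.95 and Sox17 from 25.4 to 16.1. No doublet caller was run on these sorted cells.

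Outside cluster 21 the members parted. Sox17 had its next highest level in cluster 19 (57 cells, led by the endothelial genes Sox18, Kdr and Cdh5), with 226.3 UMI CPM (183 to 276, exact Poisson interval) from 96 UMIs in 29 cells, where Foxa2 had 1 UMI and Foxa1 and Hnf4a none. A count of 0 there allows up to 3 UMIs. Cxcr4 was highest in cluster 14 (190 cells, led by the streak and early mesoderm genes Mesp1, Mixl1, T and Eomes), with 95.02 UMI CPM (79.9 to 112) from 140 UMIs in 57 cells, then in clusters 15 (51.8) and 4 (48.1), whose intervals overlap that of cluster 21 (25.5 to 68.1). Cluster 14 also held Foxa2 at 26.5 UMI CPM in 14 cells. Foxa1 outside cluster 21 was highest in clusters 16 (11.6), 20 (11.2) and 10 (8.3).

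**Figure D4:**
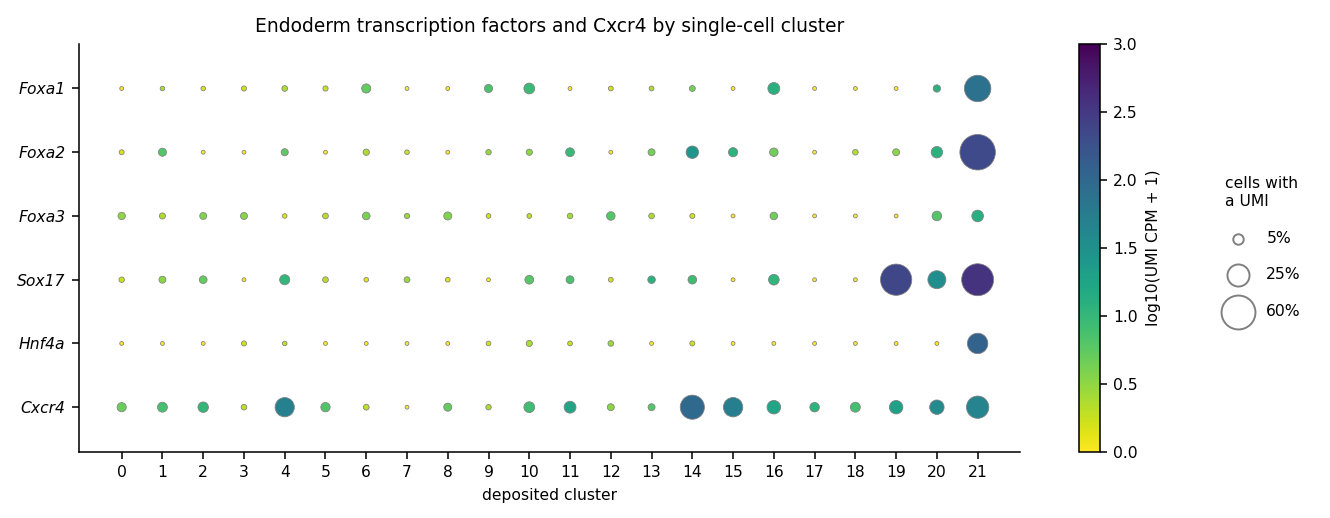
The 6 genes across the 22 deposited single-cell clusters, with dot size for the percent of cells with a UMI and colour for log10 of UMI CPM plus 1. Cluster 21 is the highest for 5 of the 6 genes, Cxcr4 is highest in cluster 14, and Sox17 has a further peak in cluster 19.

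Across whole libraries, each a single plate with no replicate, Foxa2 in Mtf2 null cells was 0.51, 0, 27.01 and 31.9 UMI CPM at days 0, 4, 7 and 10, against 0, 0.47, 17.4 and 2.15 in WT. At day 10 the counting intervals were 24.9 to 40.4 and 0.443 to 6.27. Jarid2 null libraries held 0, 0, 0 and 0.58, and Eed null libraries 1.18, 1.33, 5.94 and 2.99. Sox17 was 0.77, 5.49, 39.1 and 26.4 in Mtf2 null, 0, 2.33, 25.4 and 3.58 in WT, 0.31, 8.33, 0 and 18.4 in Jarid2 null, and 1.18, 1.77, 17.0 and 23.1 in Eed null. Day 10 WT libraries were thus low in both genes where Mtf2 null ones were not, with 27 and 2 cells holding Foxa2 of 321 and 214. Hnf4a never exceeded 5.56 in a mutant library and had no UMI in any Jarid2 null library. The Jarid2 null day 7 library thus held 0 UMIs of Foxa2, Sox17 and Hnf4a in 302 cells. The bulk EB day 7 sample labelled Jarid2 null held 26.6, 48.8 and 80.4 CPM of these genes. What sets the 2 experiments apart was not tested.

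Cxcr4 was 0.67, 0, 36.7 and 39.3 UMI CPM in WT at days 0, 4, 7 and 10, 2.06, 8.05, 50.7 and 33.3 in Mtf2 null, 4.98, 6.34, 13.6 and 20.7 in Jarid2 null, and 0.88, 3.10, 14.0 and 3.73 in Eed null. At day 7 it was seen in 13.6% of WT cells (exact 95% interval 10.0 to 17.9) and 19.2% of Mtf2 null cells (15.2 to 23.8), intervals that overlap, at median depths of 5774.5 and 6209.5 UMIs. Foxa1 in Eed null cells was already seen at day 0, with 19 UMIs in 16 of 340 cells (5.60 UMI CPM, 3.37 to 8.74), against 2, 0 and 0 UMIs in the WT, Mtf2 null and Jarid2 null day 0 libraries. With 1 library in each cell of the design these are differences between libraries.

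The genes whose pattern was closest to each member were taken by Pearson correlation, given as a description. Over the 12 group means of the endoderm series the closest to Foxa2 were Nostrin (0.991), Aqp8 (0.991) and Amn (0.990), to Sox17 Nostrin (0.994), Nxf7 (0.989) and Srgn (0.989), to Hnf4a Gcnt1 (0.950) and to Cxcr4 Gcnt4 (0.955), groups that share genotype and time. Over the 22 clusters the closest to Foxa2 were Samd3 (0.963) and Cer1 (0.934), to Sox17 Ctsh (0.928), to Hnf4a Prss12 (0.989) and Cubn (0.988), to Foxa1 Slc16a1 (0.954) and to Cxcr4 Vstm2b (0.914) and Cyp26a1 (0.880). Foxa2 and Hnf4a shared Cer1 among their 3 closest genes over clusters. Cluster 21 held 79.0% of Hnf4a UMIs, and Cer1 stood at 174.7 UMI CPM inside it against 0.655 outside. A correlation over clusters therefore does not show that 2 genes share cells. Of the 14 cells of cluster 21 with a Cer1 UMI, 11 had Foxa2 and 0 had Hnf4a. At this depth a missing UMI does not show that the transcript is absent.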

How the data were processed

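Directed libraries were rRNA-depleted, and the authors deposited estimated counts per gene from Salmon on GRCm38/mm10. For bulk EBs the authors deposited normalized counts (a signal equal to counts divided by 1 size factor a column). Whole reads were recovered in 45 of 46 columns (100.0% of values whole within 0.02, 3005707 to 22944105 reads), and repeat columns of a line and day were combined into 24 samples. For most lines and days these columns are headed r1 and r2, and the study describes its bulk duplicates as technical. Their spread within a day was not used in the test. Single-cell UMI counts per gene and cell were deposited by the authors after Bowtie2 mapping, HTSeq counting and a filter on genes per cell, together with cluster labels. Deposited plate tables of all wells, and the well barcodes (384 on every plate, reused), were not used.

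Estimated counts were rounded and tested over all genes with edgeR 4.0.16 (TMM, filterByExpr, quasi-likelihood test, 24 libraries in 12 groups, and 48 for the joint fit), with calls made below 0.001 in Benjamini-Hochberg adjusted p and above 1 in absolute log2 change. Bulk EBs were tested with limma 3.58.1 on log2 CPM (prior count 2, at least 1 CPM in 4 samples, day block, adjusted p under 0.05). There the 4 days serve as replicates, with the day 0 headed mono among them. Single-cell values are summed UMIs scaled to CPM with exact 95% intervals, and no test was run. Intervals cover counting error only, and a count of 0 allows up to 3 counts. Scripts were tested on simulated data. The 6 members and all gene lists were chosen with earlier results of these data known. Every member is named, other genes only where called in the comparison described, as partners (Cxcl12 and Ackr3), as label checks or among the 3 closest in pattern. Alternatives were DESeq2 1.42.0, no low-count filter, a replicate block, leaving out each library or day, other thresholds and thinning cells to 2500 UMIs (492 cells left out). After seeing the data, edgeR on the recovered reads and cluster 21 without its deepest cell were added. Same-numbered replicates correlated between −0.433 and 0.496 (endoderm) and −0.400 and 0.410 (mesoderm) over 66 group pairs each, so the numbers were not taken to pair samples. R 4.3.3 and Python 3.11.15 were used. The result of 1 listed gene is not reported here.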

Additional observations from a re-analysis of the deposited data

Results flagged for a closer look

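The 6.03 log2 difference between Mtf2 null and WT in the change of Hnf4a from UD to 48 h towards endoderm was flagged because the effect of genotype differed between times by an interaction test (adjusted p = 4.43e-07). Mtf2 null libraries went from 0.84 and 1.29 CPM to 19.5 and 15.1 CPM, and WT libraries from 3.03 and 1.78 CPM to 0.43 and 0.75 CPM. Visceral endoderm markers moved with it (summed 1747 and 1638 CPM against 41.4 and 36.2 CPM at 48 h, Hnf4a included). The part of the other markers in the result was not tested.

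The −3.13 log2 difference between the endoderm and mesoderm directions in the change of WT Hnf4a from UD to 48 h was flagged because the time effect differed between directions (adjusted p = 8.00e-04). WT levels at 48 h were 0.43 and 0.75 CPM towards endoderm and 5.10 and 3.67 CPM towards mesoderm. The 2 directions are 2 series deposited as separate tables, so direction and series cannot be told apart beyond each series' own UD libraries.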

How the results depend on the processing

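Of 190 member contrasts tested, 25 were called, 8 of them under every alternative, and none of the 25 changed sign. With 1 library left out at a time, member calls in Mtf2 null against WT ran from 7 to 9 (8 with all libraries) towards endoderm and from 6 to 9 (8) towards mesoderm, genotype by time from 1 to 2 (1) and from 0 to 1 (0), and the direction comparison from 0 to 1 (1), with 0 throughout for the WT courses and Jarid2 null. An adjusted p under 0.05 with no fold limit gave 14 calls for Mtf2 null towards endoderm, 2 for direction, 2 and 1 for genotype by time and 4 and 4 for the WT courses (0). Without the low-count filter Mtf2 null gave 11 calls towards endoderm, adding Cxcr4 at 48 h, Foxa2 at 5 h and, downward, Hnf4a at 5 h, and 9 towards mesoderm, adding Hnf4a at 24 h downward, while genotype by time gave 2 and 1, the WT endoderm course 3 and bulk EBs 6, losing Foxa1, and DESeq2 gave 2 and 1 for genotype by time. The genotype-by-time call gained in the endoderm series under DESeq2 was Sox17 (3.39 against 3.37 ± 0.86 in edgeR, adjusted p = 8.98e-04 against 0.00696), and in the mesoderm series Hnf4a (7.69e-04). In bulk EBs the 7 calls became 0 without the day block, and 3, 2 and 3 without day 2, 4 or 7. EdgeR on the recovered reads also gave 7 calls. The fit with the replicate number as a block gave 8 and 8 calls for Mtf2 null, 1 and 0 for genotype by time, 1 for direction and 0 elsewhere, so the block changed no count. Cluster 21 was highest for 5 of the 6 genes and for 4 after thinning or with a mean per cell. The cause of these shifts was not tested. Depth limited Foxa1 in the directed series and WT levels of Foxa2.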

Other observations

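Undifferentiated libraries of the 2 directed series were compared with each other by the chi-square per gene of their counts. Over the 4 pairs of each genotype it ran from 8.08 to 22.0 in WT, from 7.34 to 20.7 in Mtf2 null and from 5.15 to 12.1 in Jarid2 null, where the 2 undifferentiated replicates inside a series differed by 8.02 to 12.2. The lowest value of each genotype belonged to the pair of replicate 2 libraries. Whether the 2 series shared undifferentiated cultures is not given in the sources used here.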
